A study of Mus musculus with 20 samples.

Results

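Mrap2 and Zfp949 lie near each other on mouse chromosome 9, and with 5 neighbours, Snap91, Cep162, Tbx18, Nt5e and Mthfsl, they make up the 7 genes described here, out of 57010 genes in the count table. All 7 start within 5 Mb of the start of Zfp949 on GRCm39. They were chosen by their levels in 7c-treated and vehicle-treated mice, which were already known, so that this contrast is given below as a description, with no test of the 7 genes. RNA was sequenced from livers and kidneys of male UM-HET3 mice, 12 months old, after subcutaneous osmotic minipumps had delivered 7c or vehicle for 28 days. The 7c mice received repsox, tranylcypromine, DZNep, CHIR99021, forskolin and TTNPB at 0.1 mg/kg/day each and valproate at 1 mg/kg/day, and the vehicle mice received the solvent, 50% DMSO and 50% PEG300. There were 6 livers and 6 kidneys in the 7c group and 4 of each in the vehicle group, and the study asked whether the cocktail affected transcriptomic biomarkers of age. UM-HET3 is a cross of several inbred strains whose animals inherit different combinations of parental alleles, and no genotype of these animals was analysed here.

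Total counts were 28383359 to 30571119 in 7c livers, 31670440 to 34153084 in vehicle livers, 33003173 to 64872451 in 7c kidneys and 27855849 to 39651123 in vehicle kidneys, so that every 7c liver library was smaller than every vehicle liver library. The 7 hepatocyte markers summed to 74180 CPM or more in every liver and to at most 329 in every kidney. Markers of kidney tubule and glomerulus summed to 35100 CPM or more in every kidney and to at most 0.505 in every liver. Each library thus carried the markers of its labelled tissue. Skeletal muscle markers reached 605.6 CPM in the highest 7c liver, where the median of the group was 0.8005. CPM, a count relative to library size, was scaled by TMM within each tissue unless stated. In bulk tissue, fewer cells of a type and less RNA per cell cannot be told apart.

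The 7 genes are neighbours with unrelated functions. Mrap2 encodes a small single-pass membrane protein that accompanies melanocortin receptors and also binds other G protein-coupled receptors, among them the ghrelin and prokineticin receptors, and it is best known in the hypothalamus, where its loss causes obesity. Zfp949 encodes a zinc finger protein, and many proteins of that class bind DNA and recruit the corepressor Trim28. Nt5e encodes CD73, the cell surface enzyme that turns extracellular AMP into adenosine. Mthfsl is a close relative of Mthfs, the enzyme that returns 5-formyltetrahydrofolate to the folate pool. Cep162 encodes a centriole protein that builds the transition zone of cilia, Snap91 encodes the neuronal clathrin adaptor AP180, and Tbx18 encodes a T-box transcription factor of mural cells and of the mesenchyme around the ureter.

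In GENCODE vM39 on GRCm39, the order along the chromosome is Snap91 (chr9:86647416-86762989, minus strand), Mrap2 (chr9:87025834-87066102, plus), Cep162 (chr9:87071630-87137624, minus), Tbx18 (chr9:87584851-87613338, minus), Nt5e (chr9:88209089-88254146, plus), Zfp949 (chr9:88430073-88453709, plus) and Mthfsl (chr9:88495505-88602349, minus). Mrap2 and Cep162 end 5.5 kb apart, pointing towards each other. The other gaps between neighbours run from 41.8 kb, between Zfp949 and Mthfsl, to 595.8 kb, between Tbx18 and Nt5e. Zfp949 shares 128 of its 9133 exon bases with the lncRNA 9430037G07Rik and 545 with the lncRNA Gm68674, both on the opposite strand, and Gm68674 has no row in the count table. It also shares 290 exon bases with Gm26461 on the same strand, which held 10 counts in all libraries together.

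The 250 bases before the annotated start of Zfp949 are shown because results below turn on this gene in both tissues. They are read 5′ to 3′ on the plus strand of GRCm39, at chr9:88429823-88430072, with CG dinucleotides in capitals.
Zfp949: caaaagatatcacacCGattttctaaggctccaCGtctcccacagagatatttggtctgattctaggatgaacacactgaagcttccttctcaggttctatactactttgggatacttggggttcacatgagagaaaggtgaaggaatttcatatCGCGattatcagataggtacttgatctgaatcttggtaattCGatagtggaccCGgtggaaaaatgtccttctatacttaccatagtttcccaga
The window has 6 CG dinucleotides and a GC content of 41.2%, and it overlaps an exon of Gm68674. Across 32536 mouse promoters of RefSeq (GRCm38.p6), the medians were 6 and 52.4%. The window does not hold, on either strand, the cAMP response element TGACGTCA (in 1.56% of all promoters), the retinoic acid repeat, AGGTCA and again AGGTCA after 5 bases (0.00922%), the TCF/LEF motif CTTTGAT (3.21%), the SMAD motif GTCTAGAC (0.169%) or TATAAA (12.3%). The response elements were searched because forskolin, TTNPB, CHIR99021 and repsox act on those pathways, and TATAAA as a core promoter element, and the lack of a match says only that the letters are not in this window.

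Mrap2 was close to absent from the livers of 7c mice and present in every vehicle liver. The 4 vehicle livers held 344, 566, 232 and 272 counts, which correspond to 11.3, 16.2, 6.59 and 7.95 CPM (mean 10.5 ± 4.28, SD, n = 4). The 6 livers of 7c mice held 1, 0, 0, 0, 0 and 0 counts. The groups did not overlap, and the lowest vehicle liver held 232 counts against 1 in the highest 7c liver. Summed over libraries, 1 of 178.5 M counts in 7c livers and 1414 of 132.6 M in vehicle livers belonged to Mrap2, a ratio of 1904. Its 95% exact interval, from 341 to 75240, covers counting error only. It takes every count as independent, and is too narrow if both reads of each pair were counted. Among all 57010 genes, Mrap2 was the only one with at most 1 count in every 7c liver and at least 10 in every vehicle liver, and the result was the same with minimums of 50 and 100 counts. No gene showed the reverse in liver, and no gene showed either pattern in kidney. This count of genes was made after the values of Mrap2 were known.

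In kidney, Mrap2 was lower in 7c mice but detected in all of them. The 4 vehicle kidneys held 101, 108, 114 and 74 counts, or 2.64, 3.00, 3.05 and 2.58 CPM (mean 2.82 ± 0.242, SD, n = 4). The 6 kidneys of 7c mice held 26, 2, 20, 12, 2 and 14 counts, with a lowest value of 0.0600 CPM, a median of 0.323 and a highest of 0.534 (mean 0.283 ± 0.188, SD, n = 6). The highest 7c kidney was thus well below the lowest vehicle kidney. The log2 difference, 7c minus vehicle, was -3.27 (SE 0.466). The vehicle kidneys were close to each other, with a coefficient of variation of 8.58%, against 66.6% in 7c kidneys, whose counts are few. Hepatocyte markers, of the tissue in which vehicle mice had most Mrap2, summed to 80.6 to 329 CPM in 7c kidneys and 208.6 to 303.8 CPM in vehicle kidneys, all 7 detected, but most of that sum is Ttr. Without Ttr the other 6 summed to 11.2 to 38.1 CPM in 7c and 32.8 to 61.0 CPM in vehicle kidneys, and all 6 had a lower mean in 7c kidneys, as Mrap2 did. Alb, which encodes albumin, was at 16.3 and 34.4 CPM, and the urea cycle gene Cps1 at 0.138 and 1.14 CPM, with all 6 7c kidneys below every vehicle kidney for Cps1. On a scale fitted over both tissues, the means of the 7 markers in vehicle kidneys were 0.0232% (Cps1) to 2.27% (Ttr) of those in vehicle livers, and that of Mrap2 was 17.2%. Adrenal cortex markers summed to 4.78 to 8.64 and 4.01 to 6.56 CPM. Of the 10 markers, 8 were detected in each group, and Cyp11b2 was at 0 in both. The part of either cell type in the fold of Mrap2 between treatments was not tested.

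Zfp949 was lower in every 7c library than in any vehicle library of the same tissue, but was expressed in all 20. In liver, the vehicle values were 16.8, 18.4, 19.0 and 21.7 CPM (mean 19.0 ± 2.06, SD, n = 4), and the 7c values had a lowest of 6.49, a median of 7.52 and a highest of 9.56 (mean 7.78 ± 1.26, SD, n = 6). The log2 difference in liver was -1.29 (SE 0.140), a 7c level of 0.410 times that of vehicle. In kidney, the vehicle values were 23.5, 26.5, 24.3 and 27.7 CPM (mean 25.5 ± 1.94, SD, n = 4), and the 7c values had a lowest of 10.4, a median of 12.6 and a highest of 15.1 (mean 12.5 ± 1.90, SD, n = 6). The log2 difference in kidney was -1.02 (SE 0.132), or 0.492 times vehicle. In both tissues the lowest vehicle library was above the highest 7c library. Some reads of Zfp949 may be shared with other genes, since 24.5% of the 4067 bases of its canonical transcript also match other annotated genes at an identity of 95% or more over at least 50 bases.

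Mrap2 and Zfp949 were the members whose 7c libraries all lay below all vehicle libraries, 2 in each tissue. Over all genes past the filter, which asked for 10 or more counts in 50% or more of a tissue's libraries, the same held for 0.4% of 15012 genes in liver and 0.406% of 17749 in kidney. Of the 7 members, 4 passed that filter in liver (Cep162, Nt5e, Zfp949 and Mthfsl) and all but Tbx18 passed it in kidney. Mrap2 itself did not pass in liver, since 6 of its 10 libraries held at most 1 count. Because these values chose the genes, nothing is read from the comparison with the background.

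**Figure D1:**
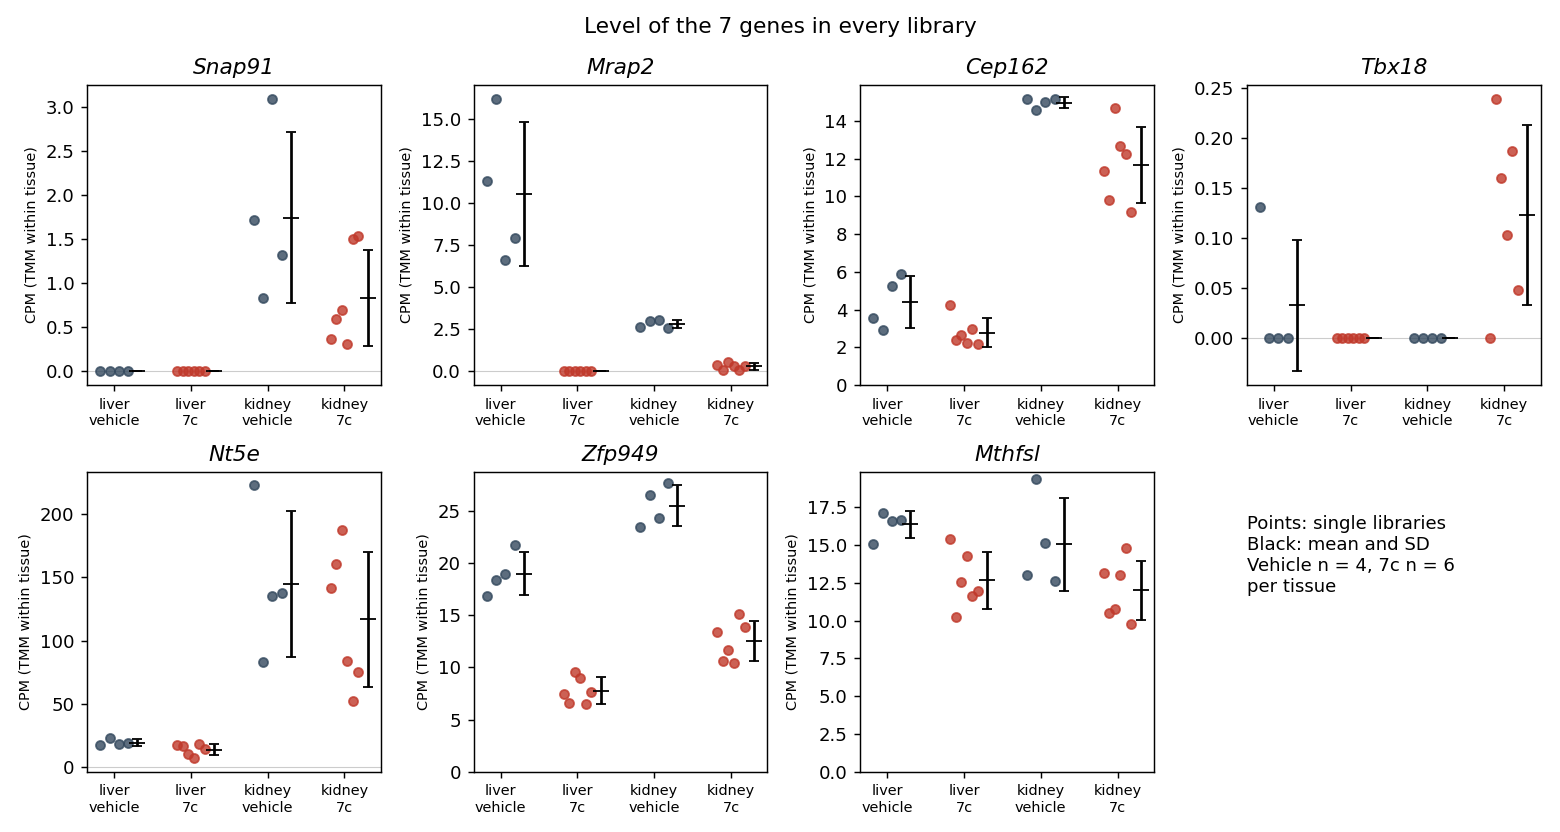
Level of each gene in every library, in CPM on a linear axis, by tissue and treatment; points are single libraries and the black marks give the mean and SD (4 vehicle, 6 7c libraries per tissue). Mrap2 lies at or next to 0 in the 7c livers and between 6.59 and 16.2 in vehicle livers, and Zfp949 shows separate groups in both tissues, while the 2 treatments overlap or lie near 0 for the other genes.

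The levels of the other members overlapped between the groups or were near 0. Cep162, the transition zone gene beside Mrap2, was measured at 3.56, 2.92, 5.25 and 5.90 CPM in vehicle livers and from 2.20 to 4.26 CPM (median 2.52) in 7c livers. Its log2 difference was -0.66 (SE 0.268) in liver, where 4 of 6 7c livers lay below every vehicle liver. In vehicle kidneys it was nearly constant, at 15.2, 14.6, 15.0 and 15.1 CPM, and 7c kidneys spread from 9.17 to 14.7 CPM (median 11.8), with 5 of 6 below every vehicle kidney and a log2 difference of -0.36 (SE 0.142). The highest 7c kidney, replicate 3, was thus the only one within the range of the vehicle kidneys under TMM, and with RLE size factors it too lay below them.

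Nt5e, the adenosine-producing enzyme, gave 17.3, 23.4, 18.6 and 18.9 CPM in vehicle livers and 7.31 to 18.1 CPM (median 15.7) in 7c livers, a log2 difference of -0.47 (SE 0.219) with 4 of 6 below. Its kidney levels varied widely inside each group, with 222.4, 83.2, 134.8 and 137.3 CPM in vehicle and 52.4 to 186.9 CPM in 7c kidneys. The groups overlapped there, 2 of 6 7c kidneys lay below every vehicle kidney, and the log2 difference of -0.31 was smaller than its SE of 0.346.

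Mthfsl gave 15.1, 17.1, 16.6 and 16.7 CPM in vehicle livers and 10.2 to 15.4 CPM (median 12.3) in 7c livers. Its log2 difference was -0.37 (SE 0.127) with 5 of 6 below. In kidney it gave 13.0, 19.4, 15.1 and 12.6 CPM in vehicle and 9.77 to 14.8 CPM in 7c, with 3 of 6 below and a log2 difference of -0.33 (SE 0.164). Reads of Mthfsl cannot be safely told from those of Mthfs, which lies on the same chromosome. Of 609 coding bases 3 differ, all in the second of 3 coding exons (an identity of 99.5%). This exon is shown for both genes, 5′ to 3′ on the coding strand of GRCm39, at chr9:88597541-88597802 on the minus strand for Mthfsl and chr9:89097262-89097523 on the plus strand for Mthfs, with the bases that differ in capitals.
Mthfsl: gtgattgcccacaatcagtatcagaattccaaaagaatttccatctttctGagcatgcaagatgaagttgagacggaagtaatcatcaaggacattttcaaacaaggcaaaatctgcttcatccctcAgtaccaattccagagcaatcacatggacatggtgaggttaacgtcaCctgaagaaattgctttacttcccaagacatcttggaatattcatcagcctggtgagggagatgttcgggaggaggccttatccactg
Mthfs: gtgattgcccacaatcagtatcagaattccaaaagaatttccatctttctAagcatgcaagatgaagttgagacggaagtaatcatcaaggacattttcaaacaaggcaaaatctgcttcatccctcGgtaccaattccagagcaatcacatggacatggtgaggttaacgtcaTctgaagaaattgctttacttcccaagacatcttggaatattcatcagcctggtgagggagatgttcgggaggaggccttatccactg
The sum of Mthfsl and Mthfs was 17.5 ± 2.55 CPM in 7c livers (SD, n = 6) and 21.4 ± 1.29 in vehicle livers (SD, n = 4). In kidney the sums were 15.5 ± 2.22 and 19.3 ± 4.24 CPM. Mthfs alone was at 4.86 and 5.03 CPM in 7c and vehicle livers and at 3.54 and 4.22 in kidneys, so that more of the reads were assigned to Mthfsl in every group.

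Snap91 was not detected in liver, and Tbx18 was near the limit of detection in both tissues. Snap91 held 0 counts in all 10 livers. In kidney it held 66, 30, 116 and 38 counts in vehicle mice (0.835 to 3.10 CPM) and 12 to 64 counts in 7c mice (0.311 to 1.54 CPM), with 4 of 6 below and a log2 difference of -1.08 (SE 0.507). The SDs, 0.974 CPM in vehicle and 0.549 in 7c kidneys, were large beside the difference of the means, 1.75 and 0.834 CPM.

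Tbx18 was the member that pointed the other way in kidney. The 4 vehicle kidneys held 0 counts, and the 7c kidneys held 0, 8, 6, 4, 6 and 2. Summed over the group, 26 of 247.7 M counts against 0 of 141.3 M is at least 4.94-fold higher in 7c kidneys, taking 3 counts over the vehicle group as the floor. All of these counts are even, and if both reads of each pair were counted the floor is 6 counts and the bound 2.47-fold. In liver its only counts were 4 in vehicle replicate 1. Tbx18 shares 995 of its 4745 exon bases with D030062O11Rik on the opposite strand, which held 2 counts in all 20 libraries together. Of the 4706 bases of its canonical transcript, 22.2% match other annotated genes, 460 in all, at an identity of 95% or more, so that its few counts may be shared. Mural cell markers, the cells in which Tbx18 is best known, summed to 192.9 to 243.4 CPM in 7c kidneys and 178.1 to 220.6 CPM in vehicle kidneys, all 8 detected in both groups. Adipocyte markers summed to 58.5 to 171 CPM in 7c kidneys and to 37.4 to 49.5 CPM in vehicle kidneys, with no overlap, all 8 detected in 7c and 7 in vehicle kidneys (Ucp1 at 0). Urothelium markers summed to 0.961 to 5.72 CPM in 7c kidneys and to 0.523 to 2.06 CPM in vehicle kidneys, with overlap. All 5 were detected in both groups, and the medians were 2.635 and 1.629 CPM. The part of these cell types in the Tbx18 and other kidney values was not tested. Neuronal and chromaffin markers, which could accompany Snap91, summed to 0.999 to 3.25 CPM in 7c kidneys and 1.15 to 1.95 CPM in vehicle kidneys. Of these 8 markers, 5 were detected in 7c and 4 in vehicle kidneys, with Snap25, Th and Dbh at 0 in both groups.

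The other genes around Zfp949 were examined beside the members. They are what remains of the window once the 7 genes picked with known values are set aside, and that choice bears on their counts. Within 5 Mb of Zfp949 there were 181 other annotated genes, of which 32 passed the filter in liver and 40 in kidney. In edgeR's quasi-likelihood test with Benjamini-Hochberg adjustment over all genes tested, 0 of them passed an adjusted p of 0.05 in either tissue. Over all genes past the filter, the members included, 1 of 15012 (0.00666%) passed in liver and 0 of 17749 (0%) in kidney. At an unadjusted p of 0.05, 1 of 32 passed in liver and 0 of 40 in kidney, where 3.76% of all genes did in liver (1.95% lower and 1.81% higher) and 2.61% in kidney (1.23% lower and 1.39% higher). The median log2 difference of the neighbours was -0.05 in liver and 0.00 in kidney, next to 0.00 and -0.01 over all genes tested. In liver 19 of the 32 were lower and 13 higher, where 49.6% of all genes tested were lower, and in kidney 20 of 40 were lower. Whether the neighbours differ from other genes as a group was not tested.

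The gene that passed the unadjusted threshold was the lncRNA 9330159M07Rik, 253.9 kb from the start of Zfp949. Its CPM was 1.11 ± 0.363 with 7c and 0.530 ± 0.162 with vehicle in liver, a log2 difference of 1.06 (SE 0.416, adjusted p = 0.9996), and all 6 7c livers were above all vehicle livers, as for 0.32% of all genes tested in liver (0.31% in kidney). It was higher in 4 of 6 7c kidneys, with a log2 difference of 0.88 (SE 0.475). The next smallest p-values in liver belonged to Bckdhb, a subunit of the branched-chain ketoacid dehydrogenase, at -0.23 (SE 0.111), and the scramblase family gene Plscr2, at -0.29 (SE 0.164). In kidney they belonged to Plscr4, at -0.26 (SE 0.157), and 4933431K14Rik, at 0.49 (SE 0.298). All of these had an adjusted p above 0.99. Between Snap91 and Mthfsl, 7 genes besides the members were tested, and 6 were lower and 1 higher in liver, 5 lower and 2 higher in kidney, none past the threshold. The lncRNA 9430037G07Rik, which overlaps Zfp949 on the other strand, had in liver a level of 0.838 ± 0.596 CPM with 7c and 0.366 ± 0.268 with vehicle, and its log2 difference of 1.19 (SE 0.744) did not pass the test.

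**Figure D2:**
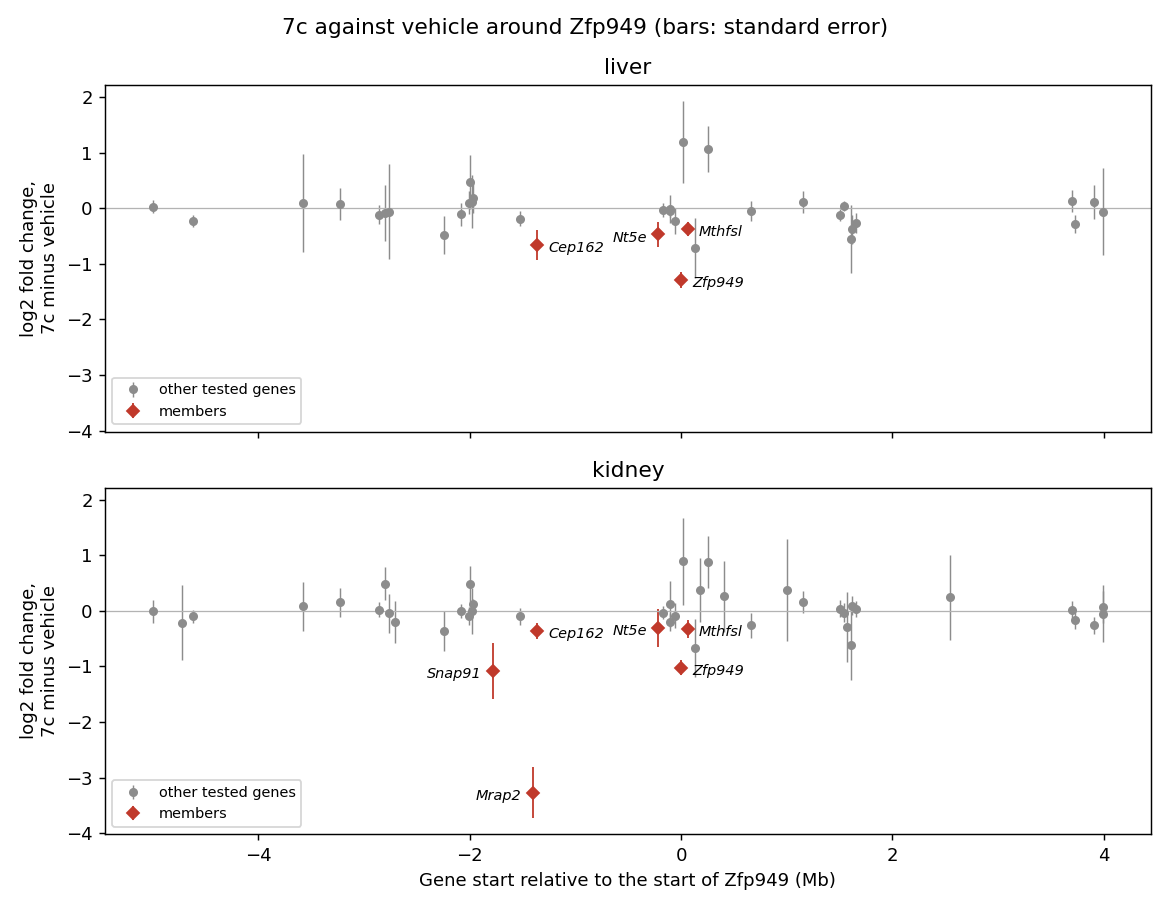
log2 fold change (7c minus vehicle, vertical axis) against the distance of each gene's start from that of Zfp949 in Mb (horizontal axis), for genes that passed the filter, in liver and kidney; red diamonds are members, grey points are other tested genes, and bars are standard errors. Zfp949 at -1.29 in liver and -1.02 in kidney and Mrap2 at -3.27 in kidney lie apart from grey points that scatter around 0; Mrap2 in liver is not drawn because it had 1 count in 6 libraries.

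The kidney to liver contrast in vehicle mice was not used to choose the genes and could be tested, with 53.4% of 17245 tested genes passing an adjusted p of 0.05 (27.7% higher in kidney, 25.7% higher in liver). Cep162 and Nt5e were higher in kidney, Mrap2 and Mthfsl were higher in liver, and Zfp949 did not pass. Snap91, which reached the filter through kidney alone, is described without a test, and Tbx18 was below the filter. These CPM values were scaled over both tissues and so differ from those above. Nt5e was at 116.5 ± 46.0 CPM in kidney and 24.5 ± 3.81 CPM in liver (SD, n = 4 each), a log2 difference of 2.25 (SE 0.263, adjusted p = 2.73e-05), and Cep162 was at 12.1 ± 0.147 and 5.49 ± 1.65 CPM, a difference of 1.14 (SE 0.232, adjusted p = 0.00157). Snap91 held 250 counts over 4 kidneys and 0 over 4 livers, at least 78.2-fold higher in kidney against a floor of 3 counts over the livers, or 39.1-fold if both reads of each pair were counted, which doubles the floor.

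Mrap2 was higher in vehicle liver than in vehicle kidney, at 13.2 ± 5.68 against 2.28 ± 0.202 CPM, with a log2 difference of -2.54 for kidney minus liver (SE 0.306, adjusted p = 3.52e-05), 5.80-fold. Every vehicle liver was above every vehicle kidney. In 7c mice the order of the 2 tissues was the other way round, with 76 counts over 6 kidneys and 1 over 6 livers (ratio 54.8, 95% interval 9.54 to 2191, counting error only, with every count taken as independent). That reversal follows from the values that chose the gene and is not tested.

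Mthfsl had a log2 difference of -0.75 for kidney minus liver (SE 0.173, adjusted p = 0.00342), and Zfp949 had -0.20 (SE 0.136, adjusted p = 0.233). Both depend on how the tissues are scaled. With CPM by total count, without TMM, the median of all genes moved from 0.06 to 0.66, the shares called became 47.3% higher in kidney and 13.9% higher in liver, Mthfsl moved to -0.16 (adjusted p = 0.417) and Zfp949 to 0.39 (adjusted p = 0.0450). The calls for Cep162, Nt5e and Mrap2 kept their direction and passed under TMM, RLE and total count scaling. In 7c mice alone, Cep162 (1.46), Nt5e (2.44) and Mthfsl (-0.69) passed with the same signs, and Zfp949 did not (0.08, adjusted p = 0.653). Snap91 held 194 counts over the 6 kidneys and 0 over the 6 livers, at least 46.6-fold higher in kidney (23.3-fold with the doubled floor).

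**Figure D3:**
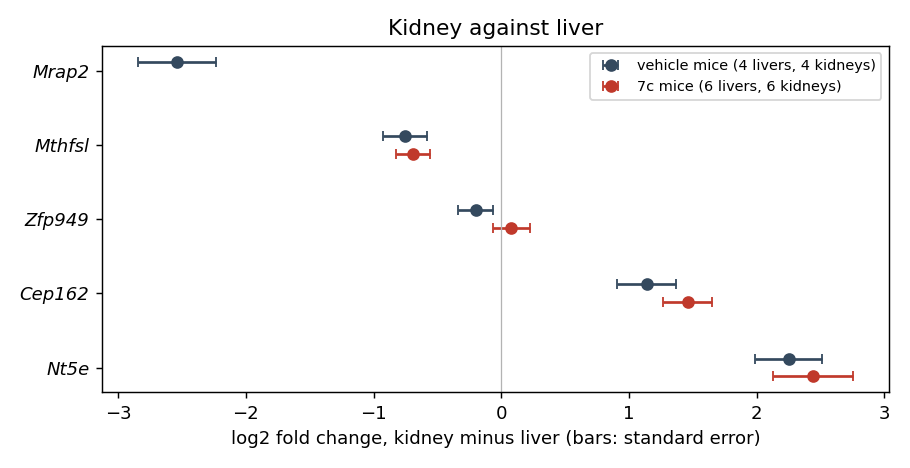
log2 fold change of kidney minus liver (horizontal axis, bars are standard errors) for 5 genes, in vehicle mice and in 7c mice. Nt5e and Cep162 lie to the right of 0 and Mthfsl to the left in both; Mrap2 is drawn for vehicle mice only, and Snap91 and Tbx18 are left out because a tissue had 0 counts or few.

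Levels of different genes were set side by side per kilobase, and their order depended on the length used. Per kilobase of all annotated exons, Nt5e was the highest of the 7 in vehicle kidney (16.5 CPM per kb), followed by Zfp949 (2.79), Mthfsl (1.66), Cep162 (0.974), Mrap2 (0.844), Snap91 (0.162) and Tbx18 (0). In vehicle liver the same measure gave 3.15 for Mrap2 (SD 1.28, n = 4), 2.23 for Nt5e (SD 0.304), 2.08 for Zfp949 (SD 0.225) and 1.80 for Mthfsl (SD 0.0975). Nt5e and Zfp949 differed there by less than the SD of either, and Mrap2 and Nt5e by less than the SD of Mrap2 but more than that of Nt5e. Per kilobase of the canonical transcript, which has 801 bases for Mthfsl and 1963 for Mrap2, Mthfsl led in vehicle liver at 20.4 CPM per kb, ahead of Mrap2 (5.36), Nt5e (4.71) and Zfp949 (4.66). In vehicle kidney it gave 34.8 for Nt5e, 18.8 for Mthfsl, 6.26 for Zfp949, 1.94 for Cep162 and 1.44 for Mrap2. Which transcripts the counts came from is not known from the table, and reads of Mthfsl cannot be safely told from those of Mthfs. In 7c livers Mrap2 stood at 0.00163 CPM per kb of exons and 0.00278 per kb of the canonical transcript.

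Within the 7c mice, the level in the liver and in the kidney with the same replicate number was compared for the 4 members with at least 10 counts in every library. Pearson's r was 0.19 for Cep162 (rho 0.31), -0.06 for Nt5e (rho -0.37), -0.44 for Zfp949 (rho -0.49) and 0.41 for Mthfsl (rho 0.31), each over 6 pairs. The exact permutation p-values, two-sided and adjusted over the 4 genes, were 0.894, 0.894, 0.797 and 0.797 for r, and 0.564 for every rho. Without the 2 samples farthest from the median, r was 0.68, 0.14, 0.24 and 0.07. None of the 4 passed, and the labels do not state that a number marks the same animal.

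The genes most like Mrap2 and Zfp949 over the 20 libraries were named from log2(CPM + 0.5) with the tissue mean removed. The libraries share the treatment groups, and Mrap2 and Zfp949 were chosen with their low 7c values known, so that these ranks in part restate that choice and are given without p. Zfp949 itself ranked first for Mrap2 among 17696 genes (r = 0.91), ahead of Ppp1r16b (0.83), a regulatory subunit of protein phosphatase 1, and Lratd1 (0.78). For Zfp949, 14130 genes past the filter in both tissues were ranked. Mrap2, which did not pass in liver, was not among them, although its r with Zfp949 is the 0.91 given above. The first of those ranked were the pseudogene Rpsa-ps10 (0.81), whose reads can be shared with Rpsa, the zinc finger gene Zfp386 (0.78) and the helicase Ddx59 (0.77). Mthfsl came at rank 8 (0.71) and Cep162 at rank 22 (0.65), whereas Nt5e (0.22) was at rank 2303.

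No gene of the wider pathways passed the threshold. In the melanocortin and MRAP2-partner list 3 of 14 genes in the table were tested in liver and 4 in kidney, and 0 passed an adjusted p of 0.05. Of the receptors themselves, Mc1r, Mc2r, Mc3r, Mc4r, Mc5r, Ghsr and Hcrtr1 held 0 counts in all 10 livers, so that these receptors were not detectable in liver at this depth. Prokr1 held at most 8 counts in a liver and Prokr2 at most 2. Mrap, the related accessory protein that the adrenal gland needs for its ACTH receptor, had in liver 60.0 ± 13.5 CPM with 7c and 60.2 ± 15.5 with vehicle, a log2 difference of 0.00 (SE 0.196). In kidney, Mrap was at 0.855 ± 0.455 and 0.228 ± 0.197 CPM, a log2 difference of 1.86 (SE 0.693, adjusted p = 0.997), which passed an unadjusted p of 0.05 as 2.61% of all genes in kidney did. Adipocytes also express Mrap, and their markers were higher in 7c kidneys, as given above; their part in it was not tested.

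The lists around the other members gave 0 genes past an adjusted p of 0.05 in either tissue, for adenosine (16 tested in liver, 17 in kidney), folate (17 and 19), transition zone (17 and 19), clathrin (16 and 16), T-box (4 and 4) and corepressor genes (13 and 13). At an unadjusted p of 0.05, the genes that passed in liver were the nucleotidase Nt5c2 (-0.31), the folate genes Aldh1l1 (0.23) and Atic (0.26), the endocytic adaptor Eps15 (-0.31) and the deacetylase Hdac2 (-0.27), and in kidney the folate enzyme Ftcd (-0.55), each without passing after adjustment. Over all genes tested, 3.76% passed that unadjusted threshold in liver and 2.61% in kidney. Entpd1, which makes the AMP that CD73 uses, differed by 0.01 (SE 0.280) in liver and 0.01 (SE 0.178) in kidney, and its relative Entpd2 by 0.20 and 0.10. Mthfs differed by -0.05 in liver and -0.26 in kidney, and the folate enzyme Mthfd1 by 0.10 and -0.06. Cep290 and Cep164, at the transition zone and the distal appendages of the centriole, differed by 0.00 and -0.09 in liver and by -0.17 and -0.21 in kidney. Picalm, the broadly expressed relative of Snap91, differed by -0.05 in liver and -0.17 in kidney, and the clathrin light chain Clta by 0.18 and 0.11. Tbx2 differed by -0.35 and 0.08, and Tbx1, below the filter in liver, by -0.22 in kidney. Trim28, the corepressor of zinc finger proteins, differed by -0.02 (SE 0.0795) in liver and 0.12 (SE 0.155) in kidney, and its partner Setdb1 by -0.05 and -0.08.

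Zfp949 belongs to a large family, of which 448 other genes named Zfp were in the table. Of these, 226 of 344 tested were lower and 118 higher in 7c livers, with a median of -0.09, and 225 of 365 tested were lower in 7c kidneys, with a median of -0.06. Over all genes tested, 49.6% were lower in liver and 51.0% in kidney. None of these Zfp genes passed an adjusted p of 0.05 in either tissue, and at an unadjusted p of 0.05 there were 15 lower and 4 higher of 344 in liver, where 1.95% and 1.81% of all genes were, and 9 lower and 2 higher of 365 in kidney, where 1.23% and 1.39% were.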

How the data were processed

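RNA of 20 libraries was measured by stranded, polyA-selected sequencing. The authors aligned reads to GRCm39 with STAR 2.7.11b and counted them per gene with featureCounts 2.0.6 (versions from the submitters' processing notes), and deposited raw counts of 57010 genes. The annotation release, the strand setting, the treatment of reads with several positions and the counting of read pairs are not given in the sources used here. Of the values from 1 to 30, 78.2% were even, and whether both reads of a pair were counted is not stated, and 73.9% of the 111 nonzero member values were even. Symbols and positions came from GENCODE vM39, which matched 56310 identifiers, and the rest held 0.0417% of counts. No 2 libraries of a tissue agreed within sampling noise. Groups came from sample titles. As the labels call the samples biological replicates, p-values measure the spread between these animals' libraries.

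Genes that reached 10 counts in 50% or more of the libraries compared were tested (R 4.3.3, edgeR 4.0.16), with TMM factors, the quasi-likelihood F-test, treatment or tissue as the only term and Benjamini-Hochberg adjustment at 0.05. Members below the filter were kept for estimates only. Correlations used exact permutation tests (scipy 1.17.1). The fits were tested on simulated data. Alternatives were RLE factors, total count scaling, no filter, DESeq2 1.42.0, limma-voom (limma 3.58.1), the likelihood ratio test, a replicate block, a 2 Mb window, a pseudocount of 0.1 and leaving out each library. The members and lists were chosen with earlier results of these data known. Named besides the members were the 3 window genes of smallest p per tissue, the first 2 genes of each list and the 3 genes most like Mrap2 and Zfp949. Mc2r, Mc3r, Mc4r, Mc5r, Ghsr, Hcrtr1, Prokr1, Prokr2, Nt5c2, Aldh1l1, Atic, Eps15, Hdac2, Ftcd, Alb, Ttr, Cps1, Cyp11b2, Ucp1, Snap25, Th, Dbh, D030062O11Rik, Gm68674, Gm26461 and 9430037G07Rik were named after their values or overlaps were seen, and the motifs and sequence matches were added then too. The sequence of 1 region is not reported here.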

Additional observations from a re-analysis of the deposited data

Results flagged for a closer look

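Of 24 groups of libraries of a member, 3 held a library far from the others of its group, measured as the gap to the nearest library over the range of the group, where chance marks about 1 in 20 groups. In 7c liver replicate 1, Mrap2 was at 0.0327 CPM from 1 count, and the other 7c livers were at 0. In the same library, Cep162 was at 4.26 CPM from 130 counts, and the other 7c livers were between 2.20 and 2.96 CPM. In vehicle liver replicate 1, Tbx18 was at 0.132 CPM from 4 counts, and the other vehicle livers were at 0. In the Mrap2 and Tbx18 groups every other library is at 0, so that any count would stand apart, and the chance share does not apply to them.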

How the results depend on the processing

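Leaving out single libraries, the number of members whose 7c libraries all lay below the vehicle libraries was 2 to 4 in liver and 2 to 3 in kidney. It was 4 without vehicle liver replicate 1, where Nt5e and Mthfsl joined Mrap2 and Zfp949 and 1.11% of all tested genes met the same condition. Without 7c liver replicate 1 it was 3, with Mthfsl added (0.662% of all genes), and in kidney Cep162 was added without 7c replicate 3 (0.868%) or vehicle replicate 2 (2.15%). With RLE size factors and every library kept it was 3 in kidney, again with Cep162 (0.406%). The log2 differences of Zfp949 ran from -1.35 to -1.21 in liver and -1.14 to -0.97 in kidney over 16 alternatives each, and those of Mrap2 in kidney from -3.52 to -3.07. The kidney difference of Nt5e, -0.31, was -0.02 without vehicle replicate 1. It was -0.16 when 7c replicate 5 was left out, and -0.49 when 7c replicate 3 or vehicle replicate 2 was. That of Snap91, -1.08, was -0.64 without vehicle replicate 3, and that of Mthfsl, -0.33, was -0.17 without vehicle replicate 2.

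With the replicate number as a block, the kidney difference of Nt5e turned from -0.31 to 0.01 and that of Snap91 moved to -1.76. This block sets a 7c kidney beside a vehicle kidney of the same number, which come from different animals. For replicates 1 to 4, the r of those kidneys was 0.02, -0.04, 0.38 and -0.06. The labels do not say what a replicate number marks. Liver and kidney of the same number correlated with r from -0.01 to 0.29 in 7c and from 0.00 to 0.22 in vehicle mice, not over 0.1 in every pair. Of the livers, 4 of 6 and 3 of 4 correlated best with their own number, so that the pairing of liver and kidney is a hint only. That pairing does not bear on the block, which is within kidney. Of members higher in liver than in kidney, 1 was left with 7c mice in place of vehicle mice (Mthfsl) and 1 with total count scaling (Mrap2), a scaling added after the values were seen, under which Zfp949 turned to 0.39 and Mthfsl to -0.16. The genes most like Zfp949 and Mrap2 shared 1 of 3 each with a ranking by Spearman's rho. Of the genes within 5 Mb other than the members, none passed an adjusted p of 0.05 under any alternative run, and none in the lists under DESeq2, the likelihood ratio test or without single libraries. At an unadjusted p of 0.05, the genes within 5 Mb that passed in liver numbered 2 by limma-voom, 4 with the block, 5 with no filter and 0 to 2 without single libraries, and in kidney 3 with no filter and 0 to 4 without single libraries. With no filter their median in liver was 0.09.

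Mrap2 in 7c livers, Tbx18 in both tissues and Snap91 in liver rest on few counts or none. Where a value moved with a setting, the cause was not tested.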
